A study of Mus musculus with 7 samples.

Results

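The contrast between ligand-positive (Lig+) and ligand-negative (Lig-) KN6 DN4 thymocytes was examined over all 7 of the 7 arrays in the study, 4 Lig+ and 3 Lig-. Every probe on the array was eligible, and 23602 genes, each read by its brightest probe out of 41174 probes, entered the test. No gene was chosen by its values for entry into the contrast. Lig+ cells were DN4 thymocytes sorted from Rag2-/- mice carrying the KN6 transgene (KN6 Tg) in the presence of the receptor's ligand. Lig- cells were the same transgenic Rag2-/- population without it. The control was DN3 thymocytes from Rag2-/- mice without the transgene, so all 3 populations lacked Rag2, and the strain was given as BALB/c for all of them. The labels do not say how the ligand was absent from Lig- cells, which promoter drove the transgene, the age of the mice, or whether the DN3 RNA was 1 pool. Each 2-colour Agilent array carried the RNA of 1 DN4 sample in one dye and DN3 RNA in the other.

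DN3 and DN4 are successive stages of thymocytes that carry neither CD4 nor CD8, and the antigen receptor is first tested at the DN3 stage. Cells that signal through a γδ receptor can become γδ T cells. KN6 is a γδ receptor whose ligands, products of the nonclassical MHC genes H2-T10 and H2-T22, need β2-microglobulin, the product of B2m, to reach the cell surface. In γδ thymocytes the strength of receptor signalling is read through ERK, the Egr transcription factors and Id3, and strong signals are known to go with interferon-γ production while weaker ones go with IL-17 production.

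The promoters of 4 genes that rose in Lig+ cells are shown because they hold motifs of factors that act below the antigen receptor or, for B2m, of factors that induce MHC class I. The capitals mark motif matches within the 250 bases before the start site, from RefSeq on GRCm38.p6. Egr2 lies at chr10:67537316-67537565 on the + strand, with a CArG box, the site of serum response factor, 72 to 63 bases before the start. Nab1 lies at chr1:52500449-52500698 on the - strand, with EGR motifs at 141 to 133, 109 to 101 and 38 to 30 bases. B2m lies at chr2:122147437-122147686 on the + strand, with an ISRE (interferon-stimulated response element) motif at 139 to 130 and an NF-kappaB motif at 126 to 117 bases. Tnfrsf9 lies at chr4:150927749-150927998 on the + strand, with an NF-kappaB motif at 43 to 34 and an AP-1 motif at 15 to 9 bases.
Egr2: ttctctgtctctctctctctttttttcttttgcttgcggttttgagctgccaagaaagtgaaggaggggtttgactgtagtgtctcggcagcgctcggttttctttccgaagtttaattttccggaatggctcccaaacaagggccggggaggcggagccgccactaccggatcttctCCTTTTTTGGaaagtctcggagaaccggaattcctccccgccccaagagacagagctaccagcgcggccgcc
Nab1: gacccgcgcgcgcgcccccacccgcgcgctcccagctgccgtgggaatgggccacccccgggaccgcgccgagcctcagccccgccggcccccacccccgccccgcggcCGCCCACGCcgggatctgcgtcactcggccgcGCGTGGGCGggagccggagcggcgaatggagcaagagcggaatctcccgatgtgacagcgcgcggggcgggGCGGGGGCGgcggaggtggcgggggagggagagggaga
B2m: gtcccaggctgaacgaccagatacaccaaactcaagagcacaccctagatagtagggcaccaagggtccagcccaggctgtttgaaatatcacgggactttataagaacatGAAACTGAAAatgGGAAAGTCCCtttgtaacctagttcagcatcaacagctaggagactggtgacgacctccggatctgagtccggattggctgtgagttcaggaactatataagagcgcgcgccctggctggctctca
Tnfrsf9: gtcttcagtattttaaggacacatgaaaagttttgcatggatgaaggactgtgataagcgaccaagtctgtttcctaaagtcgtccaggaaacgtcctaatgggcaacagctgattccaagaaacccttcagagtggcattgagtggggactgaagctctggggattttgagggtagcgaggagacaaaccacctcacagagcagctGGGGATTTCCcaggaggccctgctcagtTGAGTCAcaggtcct

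Motifs were searched on both strands as GCGNGGGCG (EGR), GGGNNTTTCC (NF-kappaB), TGANTCA (AP-1), TTTCNNTTTC (ISRE) and the CArG box. A CArG box was held by 2.75% of 983 promoters of genes higher in Lig+ cells and 0.748% of 1470 promoters of genes lower in them, against 1.27% of the 17680 promoters of genes tested and 1.47% of all 32851. The NF-kappaB motif was held by 2.54%, 1.22%, 1.35% and 1.41% of the same groups. EGR motifs stood in 7.02% of promoters of the higher genes and 10.6% of those of the lower genes, against 7.25% of those tested. The ISRE was held by 4.37% and 2.38%, against 2.81%, and AP-1 by 5.19% and 4.97%, against 5.71%. A gene can have several promoter entries, and 4 of the 5 of Egr2 held a CArG box. These shares are descriptions and were not tested.

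Lig+ and Lig- cells differed in 2778 genes at an adjusted p under 0.05 from limma's moderated test, which is 11.8% of the genes tested. Of these, 1134 were higher in Lig+ cells (4.8%) and 1644 were lower (6.97%). A difference of at least 1 on the log2 scale, that is 2-fold, was reached by 1152 of them (4.88%). The 4 Lig+ and 3 Lig- arrays did not overlap in 5370 genes (22.8%), with all Lig+ arrays above in 10.2% and below in 12.6% of genes. The median difference over all genes was 0.000299, and the median standard error (SE) was 0.122. With the slide as a replicate block, which pairs the Lig+ and Lig- arrays of slides 1, 2 and 3, 5270 genes were called, 2286 higher and 2984 lower.

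**Figure D1:**
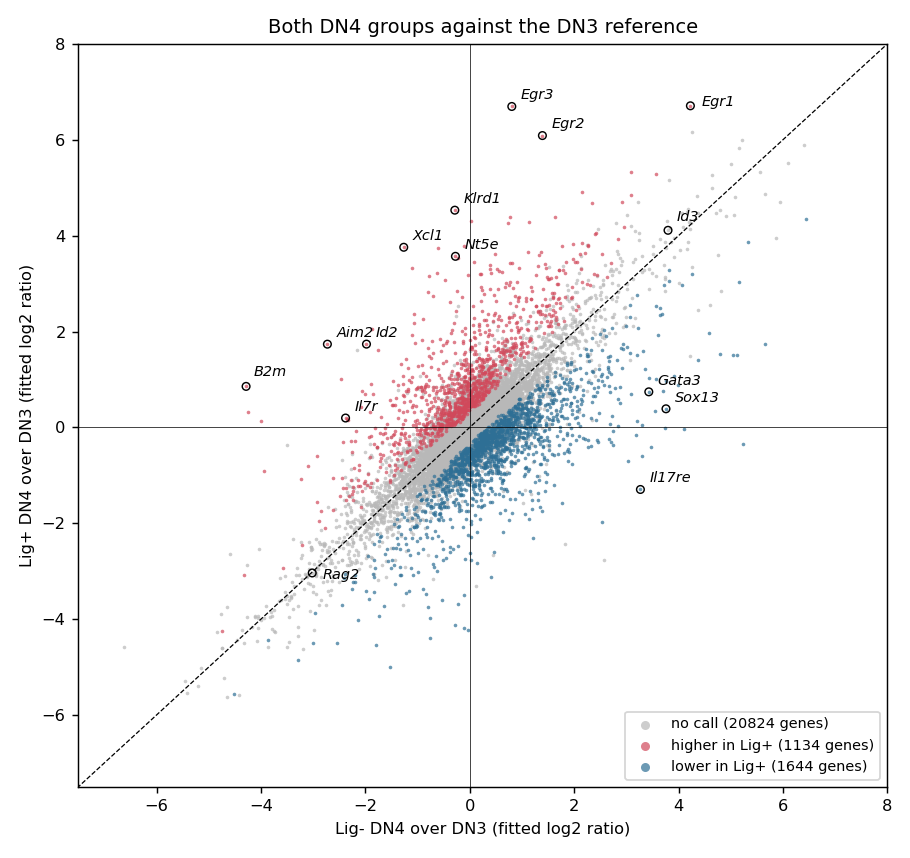
Fitted log2 ratio of Lig- DN4 cells to DN3 (horizontal) against that of Lig+ DN4 cells to DN3 (vertical), 1 point a gene, with the 1134 genes higher in Lig+ in red, the 1644 lower in blue and the rest in grey. Both axes share the DN3 reference, so the spread along the diagonal is common to them; the distance from the diagonal is the contrast, with Egr3 (6.70 against 0.81) above and Il17re (-1.30 against 3.27) below.

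The median raw signal of an array was 232.7 to 595.4 for DN4 RNA and 442.6 to 571.4 for DN3 RNA, with 72.9% to 85% and 75.8% to 83.8% of probes well above background. DN4 RNA was in Alexa 647 on slide 1, which held Lig+ 1 and Lig- 1, and in Alexa 555 on all other arrays, so the fit carried a dye term. Leaving out either array of slide 1 gives the same fit, since the dye term then takes up the other, and is called without slide 1 from here on. It left 855 called genes, the fewest of any array left out. The files give a first scan day for slides 1 and 2 and a later day for slides 3 and 4. Lig- 3 was the only Lig- array of the later day, so results on scan day 2 alone rest on 1 Lig- array. DN4 source names on slides 3 and 4 omit the stage. The series text calls the arrays of a group biological replicates, but does not say that every array held RNA of other mice, so the p-values measure the spread between these samples. The number of arrays limits the precision. In sorted bulk RNA, fewer cells of a type and less RNA per cell cannot be told apart.

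The largest rises in Lig+ cells included early targets of the antigen receptor, a subunit of MHC class I, and genes of cytotoxic lymphocytes. All values below are log2 ratios of DN4 over DN3 for single arrays, in the order Lig+ 1 to 4 and Lig- 1 to 3, and differences are Lig+ minus Lig- on the same scale ± SE (n = 4 and n = 3 arrays), with limma's adjusted p over all genes. Single-array values, and any overlap of arrays, are not corrected for dye, while the differences come from the fit with the dye term. Egr3, a zinc finger factor induced by receptor signalling, read 6.82, 6.05, 6.93 and 6.74 on the Lig+ arrays and 0.93, 0.76 and 0.61 on the Lig- arrays. It was well up on DN3 in every Lig+ array and near it in Lig- cells, a difference of 5.89 ± 0.21, adjusted p = 0.000163, or 59.3-fold. Only 2 of 3 Lig- arrays had its probe above background, it left the test when every array was required to, where another Egr3 probe had an adjusted p of 0.107, and that probe differed by 0.43. Xcl1, a chemokine of cytotoxic cells, read 3.80, 2.71, 4.31 and 4.33 against -1.42, -1.54 and -0.78, with the groups 3 or more units apart (5.02 ± 0.44, adjusted p = 0.00173). Klrd1, the CD94 chain of NK receptors, read 4.39, 3.59, 5.31 and 5.24 in Lig+ and -0.56, -0.37 and 0.28 in Lig- arrays (4.82 ± 0.45, adjusted p = 0.00205).

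Among the other 12 of the 15 largest rises, Aim2, a cytosolic DNA sensor, read 1.57, 1.18, 2.45 and 1.96 in Lig+ arrays and -2.77, -3.33 and -1.99 in Lig- arrays (4.46 ± 0.41, adjusted p = 0.00191). Every Lig+ array was above DN3. Crtam, an adhesion molecule of activated CD8 and NK cells, read 3.74, 3.15, 4.96 and 5.81 and 0.13, 0.02 and 0.14 (4.28 ± 0.62, adjusted p = 0.00871). Tnfrsf9, the costimulatory receptor 4-1BB, whose promoter is given above, read 2.66, 2.33, 3.88 and 4.11 and -0.60, -0.78 and -0.80 (3.95 ± 0.46, adjusted p = 0.0042). Its Lig- arrays were all just under DN3. Cxcr3, a receptor for interferon-induced chemokines, read 3.48, 3.04, 2.62 and 3.61 and -0.73, -0.69 and -0.54 (3.85 ± 0.25, adjusted p = 0.000808), and Nt5e, the ectonucleotidase CD73, differed by 3.84 ± 0.27, adjusted p = 0.00103. Pdxdc1, Dapl1, Endod1 and Nrp2, a semaphorin receptor, differed by 4.58, 4.36, 3.93 and 3.90, with adjusted p of 0.00233, 0.0267, 0.00289 and 0.00968. The probes of Aim2 and Nrp2 were well above background on 1 of 3 Lig- arrays and those of Nt5e and H2-Ea on 2 of 3, so their Lig- ratios rest in part on signals at background. Dapl1 missed the threshold without slide 1, Lig- 2, Lig+ 3 or Lig+ 4, at adjusted p from 0.0708 to 0.138. Nrp2 missed the threshold without Lig- 2, at an adjusted p of 0.0509. Dapl1 also missed it on Agilent's processed signals or on the authors' values (adjusted p = 0.0554).

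Some of the largest falls were in genes that stood well above DN3 in Lig- cells. Il17re, the receptor chain for IL-17C, read -1.27, -1.17, -1.56 and -1.46 on the Lig+ arrays and 3.52, 3.09 and 3.06 on the Lig- arrays. It lay below DN3 in every Lig+ array and far above it in every Lig- array, a difference of -4.57 ± 0.13, adjusted p = 0.000157, or 23.7-fold. Sdc4, a cell surface proteoglycan, read -0.32, -0.03, 0.41 and 0.24 against 3.72, 3.19 and 4.49 (-3.75 ± 0.31, adjusted p = 0.00153), and Hdac9, a histone deacetylase, stood at -0.70 and 3.04 over DN3 (-3.73 ± 0.42, adjusted p = 0.00383). Ankrd6, Tdrkh, Iqch and Ppm1e also stood 3 or more log2 units above DN3 in Lig- cells, and their differences were -4.14, -3.91, -3.92 and -3.60 (adjusted p of 0.000163, 0.000163, 0.00158 and 0.000932).

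Another set of the 15 largest falls stayed near DN3 in Lig- cells and dropped in Lig+ cells. Nebl read -3.46, -3.93, -5.25 and -4.97 in Lig+ arrays and -0.11, 0.19 and -0.54 in Lig- arrays (-4.20 ± 0.41, adjusted p = 0.0024), Prodh, which breaks down proline, -3.36, -3.72, -5.38 and -5.27 and 0.00, 0.32 and -1.10 (-4.10 ± 0.54, adjusted p = 0.00663), and Osbpl1a, an oxysterol-binding protein, -4.09, -4.01, -4.40 and -4.17 and -0.17, 0.03 and -0.81 (-3.84 ± 0.21, adjusted p = 0.000617). Tctex1d1 and Gfra1, a GDNF receptor, differed by -3.63 ± 0.26 and -3.53 ± 0.64, with adjusted p of 0.00108 and 0.0197. Esm1 did not belong to this set, since its Lig- arrays stood above DN3, at 2.61, 2.72 and 1.97. It differed by -4.50 ± 0.88, adjusted p = 0.0243, and its Lig+ 3 array at -4.59 stood apart from the other Lig+ arrays. Esm1 missed the threshold without slide 1, Lig- 2 or Lig- 3, at adjusted p from 0.0747 to 0.106. Gfra1 missed the threshold without slide 1, Lig- 2 or Lig+ 4, at adjusted p from 0.0556 to 0.0842. Esm1 also missed it on scan day 2 alone (adjusted p = 0.0954). Hdac9 and Tctex1d1 were well above background on 3 of 4 Lig+ arrays, and Hdac9 was left without a call when every array had to be (adjusted p = 0.229). Probes of 1 gene disagreed for Pdxdc1 (0.30 to 4.58), Tnfrsf9 (0.05 to 3.95), Nrp2 (-0.07 to 3.90), Osbpl1a (-3.84 to -0.03), Hdac9 (-3.73 to -0.09) and C030034L19Rik (-3.53 to -0.05), where the brightest probe is the one reported.

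**Figure D2:**
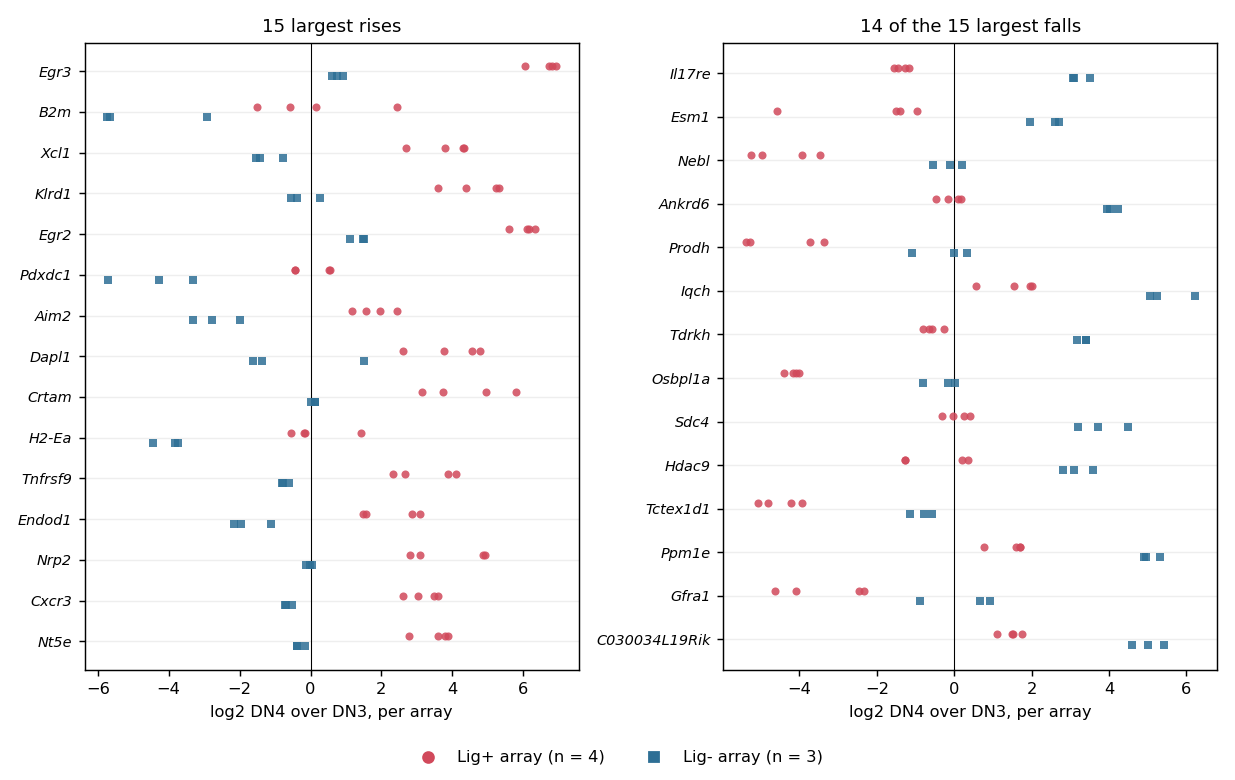
Log2 ratio of DN4 over DN3 on each array for the 15 largest rises (left) and 14 of the 15 largest falls (right), with Lig+ arrays as red circles (n = 4) and Lig- arrays as blue squares (n = 3). Lig+ and Lig- arrays do not overlap in any row, which the naming rule required; Egr3 and Il17re head the panels, and the Lig+ 3 array of Esm1 lies at -4.59.

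Since each array carried its own DN3 channel, the channels were also compared apart, with the slide as a block. No gene was called between the DN3 channels of Lig+ and Lig- arrays with limma at an adjusted p under 0.05, although 3026 genes had an unadjusted p under 0.05, and 4287 genes (18.2%) were called between the DN4 channels. Of the 1152 genes called with a difference of at least 1, the DN3 channels differed by 1 or more in 26, in 21 of them with the same sign. Among the named genes these included Nt5e (1.92), Dapl1 (1.76), Xcl1 (1.26) and B2m (-1.30). Their DN4 channels differed by 5.71, 5.90, 6.11 and 4.13. The part of such DN3 differences in the ratios was not tested.

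**Figure D3:**
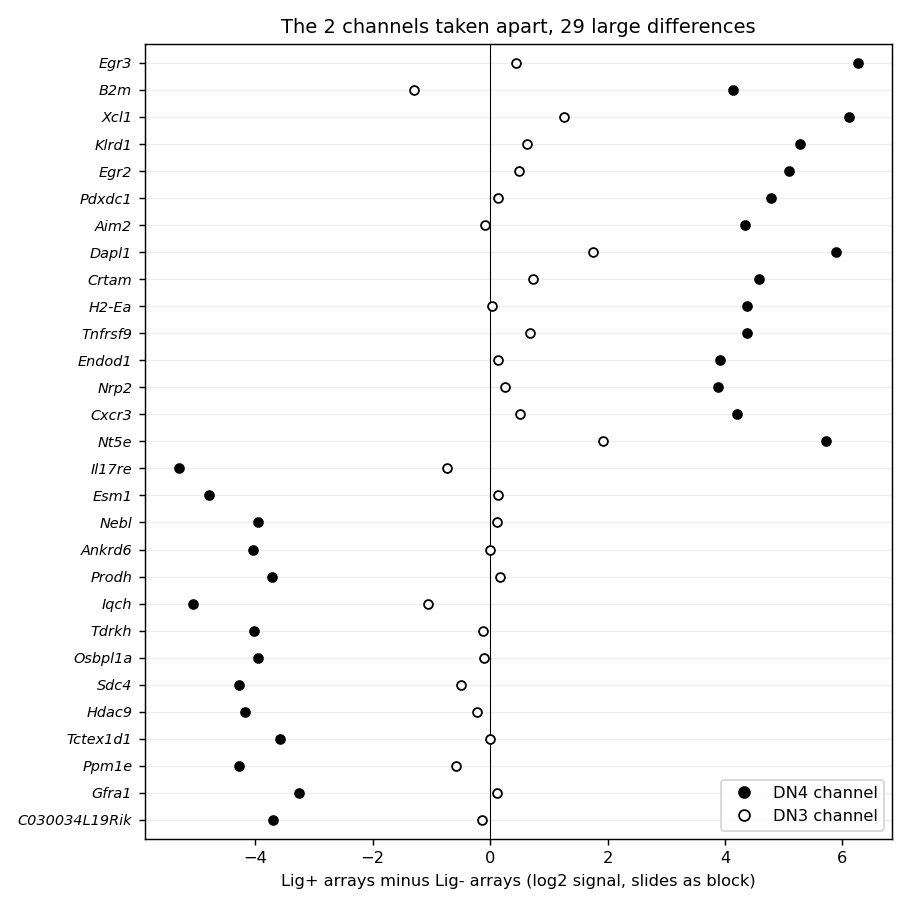
Difference between Lig+ and Lig- arrays in the DN4 channel (filled circles) and in the DN3 channel (open circles), in log2 signal with the slide as a block, for 29 of the 30 largest differences. The DN4 channels differ by -5.30 (Il17re) to 6.27 (Egr3), and the DN3 channels by values between -1.30 (B2m) and 1.92 (Nt5e).

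B2m, the shared light chain of MHC class I and of the KN6 ligands, lay far below DN3 in Lig- cells. Its reported probe read 2.43, 0.14, -0.59 and -1.50 on the Lig+ arrays and -2.93, -5.66 and -5.74 on the Lig- arrays. The Lig+ arrays scattered on both sides of DN3, the Lig- arrays all lay at least 2.93 units below it, and the groups did not overlap (5.14 ± 0.37, adjusted p = 0.00106, 35.3-fold). The highest array of each group was on slide 1, which had the swapped dyes, and the fitted dye term of B2m was 1.47. Within slides 1 to 3 the groups differed by 5.36, 5.80 and 5.15. The sources used here do not say whether the Lig- mice carried a B2m allele other than that of the Lig+ mice, so for B2m a difference in genotype and a difference in expression cannot be told apart. A second B2m probe differed by 5.16, and the other one, designed on another transcript, by 1.09. The genes of the ligands themselves did not pass the test. H2-T10 read 0.06, -0.18, 0.01 and -0.53 in Lig+ arrays against -0.16, -0.43 and -0.07 in Lig- arrays (0.08 ± 0.16, adjusted p = 0.83), and H2-T22 -0.22, 0.27, -0.42 and -0.73 against -0.56, -0.19 and -0.50 (0.14 ± 0.25, adjusted p = 0.794). In the list of ligand and class I genes 4 of 14 rose and 0 fell.

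These were, besides B2m, H2-T23, which encodes Qa-1 (1.06 ± 0.25, adjusted p = 0.0443), H2-Q7 (0.80 ± 0.19, adjusted p = 0.0442) and H2-M3 (0.54 ± 0.10, adjusted p = 0.0184). The arrays of H2-T23 and H2-Q7 overlapped between the groups, in values not corrected for dye. Within slides 1 to 3 H2-T23 differed by 1.32, 1.12 and 1.28, and H2-Q7 by 1.08, 0.74 and 1.03. H2-T23 and H2-Q7 missed the threshold without slide 1, Lig+ 2, Lig- 2, Lig+ 3 or Lig- 3, at adjusted p from 0.0506 to 0.203. H2-M3 missed the threshold without slide 1, Lig- 2 or Lig- 3, at adjusted p from 0.0649 to 0.0883. H2-T23 also missed it without the dye term or on scan day 2 alone (adjusted p from 0.0628 to 0.347). H2-Q7 also missed it under median centring, without the dye term or on scan day 2 alone (adjusted p from 0.0677 to 0.399). H2-M3 also missed it under median centring or on scan day 2 alone (adjusted p from 0.0632 to 0.0698). With the slide as a replicate block 9 of the 14 were higher and 1 lower. None of 12 genes of peptide loading and the immunoproteasome passed the limma test (4 higher and 1 lower with the replicate block), and the smallest p were those of Tap2 (-1.15 ± 0.39, adjusted p = 0.12; -1.27, adjusted p = 0.0056, with the replicate block) and Psmb10 (0.35 ± 0.11, adjusted p = 0.0947; 0.39, adjusted p = 0.0464, with the replicate block). Of the class II genes, H2-Ea read -0.19, -0.16, 1.44 and -0.55 in Lig+ arrays and -3.73, -4.44 and -3.81 in Lig- arrays (4.12 ± 0.50, adjusted p = 0.00489), and H2-Ab1 0.60, 0.52, 0.90 and 0.67 and -1.54, -2.08 and -2.76 (2.83 ± 0.25, adjusted p = 0.00179). H2-Ea and H2-Ab1 were near DN3 in Lig+ cells and below it in Lig- cells. H2-Aa differed by 1.48 ± 0.58, adjusted p = 0.168, and its other probe by -0.66. Among the 20 tested genes nearest to B2m in chromosomal order, 10 on each side, 4 were called (20%), 1 higher and 3 lower. Of the nearest 50, 8 were called (16%), and of the nearest 100, 22 (22%), against 11.8% over all genes.

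All 6 measured members of the Egr and Nab family rose in Lig+ cells, with a median of 2.44. Egr1 read 7.33, 5.61, 6.74 and 6.66 against 4.11, 4.06 and 4.27, so it stood far above DN3 in both groups and further in Lig+ cells (2.48 ± 0.34, adjusted p = 0.00742). Egr2 read 6.12, 5.59, 6.17 and 6.33 against 1.51, 1.48 and 1.11 (4.70 ± 0.20, adjusted p = 0.000264). Egr4 read 2.40, 2.31, 1.89 and 1.74 against 0.24, 0.10 and 0.03, with Lig- arrays at the DN3 level and 2 of 3 well above background (1.99 ± 0.15, adjusted p = 0.00124). Nab1 and Nab2 encode corepressors that bind Egr proteins. Nab1 read 1.85, 1.70, 1.95 and 1.98 against -0.73, -0.64 and -0.26 (2.40 ± 0.13, adjusted p = 0.000617) and Nab2 3.95, 3.02, 3.64 and 3.50 against 1.63, 1.39 and 0.78 (2.31 ± 0.20, adjusted p = 0.00177). Every call of this family held with each array left out, while Nab2 missed the threshold on Agilent's own processed signals and on the authors' values (adjusted p of 0.099 and 0.0992). Id3, an inhibitor of E proteins that Egr factors induce, stood far above DN3 in both groups, at 4.54, 2.88, 3.97 and 4.31 and at 4.12, 3.18 and 3.73, and the groups overlapped (0.31 ± 0.35, adjusted p = 0.658).

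The orphan receptors of the Nr4a family, markers of recent receptor signals, rose as well, 3 of 3. Nr4a1, which encodes Nur77, read 5.33, 3.74, 4.84 and 4.96 against 3.13, 2.86 and 3.00 (1.76 ± 0.32, adjusted p = 0.0195). Nr4a2 differed by 1.90 ± 0.35, adjusted p = 0.0199 and Nr4a3 by 0.62 ± 0.11, adjusted p = 0.0195, and the groups overlapped in neither. Nr4a3 was well above background on 1 of 3 Lig- arrays, so its difference was measured against a signal near background. The DN3 channels differed by 2.29 for Nr4a1. Nr4a1 missed the threshold without slide 1, Lig- 2, Lig+ 3, Lig- 3 or Lig+ 4, at adjusted p from 0.0504 to 0.112. Nr4a2 missed the threshold without slide 1, Lig- 2, Lig+ 3 or Lig- 3, at adjusted p from 0.057 to 0.0916. Nr4a3 missed the threshold without slide 1, Lig- 2 or Lig+ 3, at adjusted p from 0.0588 to 0.115. Nr4a3 also missed it on scan day 2 alone or with DN4 channels alone (adjusted p from 0.128 to 0.162). Of 24 measured genes of the list of receptor-induced genes, which also holds Egr1 to Egr3, Nab2 and the Nr4a genes, 14 rose and 0 fell, with a median of 1.16 and a range of 9 to 16 rises with an array left out. Irf4, a factor of activated lymphocytes, read 4.60, 3.65, 4.33 and 4.32 against 1.07, 1.13 and 1.09, above DN3 in both groups (3.15 ± 0.21, adjusted p = 0.000904). The adhesion receptor Cd6 (1.09 ± 0.16, adjusted p = 0.0102), the activation marker Cd69 (1.23 ± 0.18, adjusted p = 0.00905) and the immediate early genes Ier2 (1.62 ± 0.23, adjusted p = 0.0079) and Ier3 (1.92 ± 0.24, adjusted p = 0.00545) rose too. Cd5, whose level follows receptor strength in αβ cells, differed by 0.82 ± 0.36, adjusted p = 0.21, Fos by 1.45 ± 0.55, adjusted p = 0.162 (1.45, adjusted p = 0.00372, with the replicate block) and Myc by -0.78 ± 0.37, adjusted p = 0.251. Cd5 did pass as higher with scan day as a term, without Lig+ 2 or with DN4 channels alone. Its difference ran from 0.65 to 1.79 over 21 other settings. Cd6 missed the threshold without slide 1 or Lig- 2, at adjusted p from 0.0518 to 0.0737. Cd69 missed the threshold without slide 1, at an adjusted p of 0.0664. Ier3 missed the threshold with the DN4 channels alone, at an adjusted p of 0.136.

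**Figure D4:**
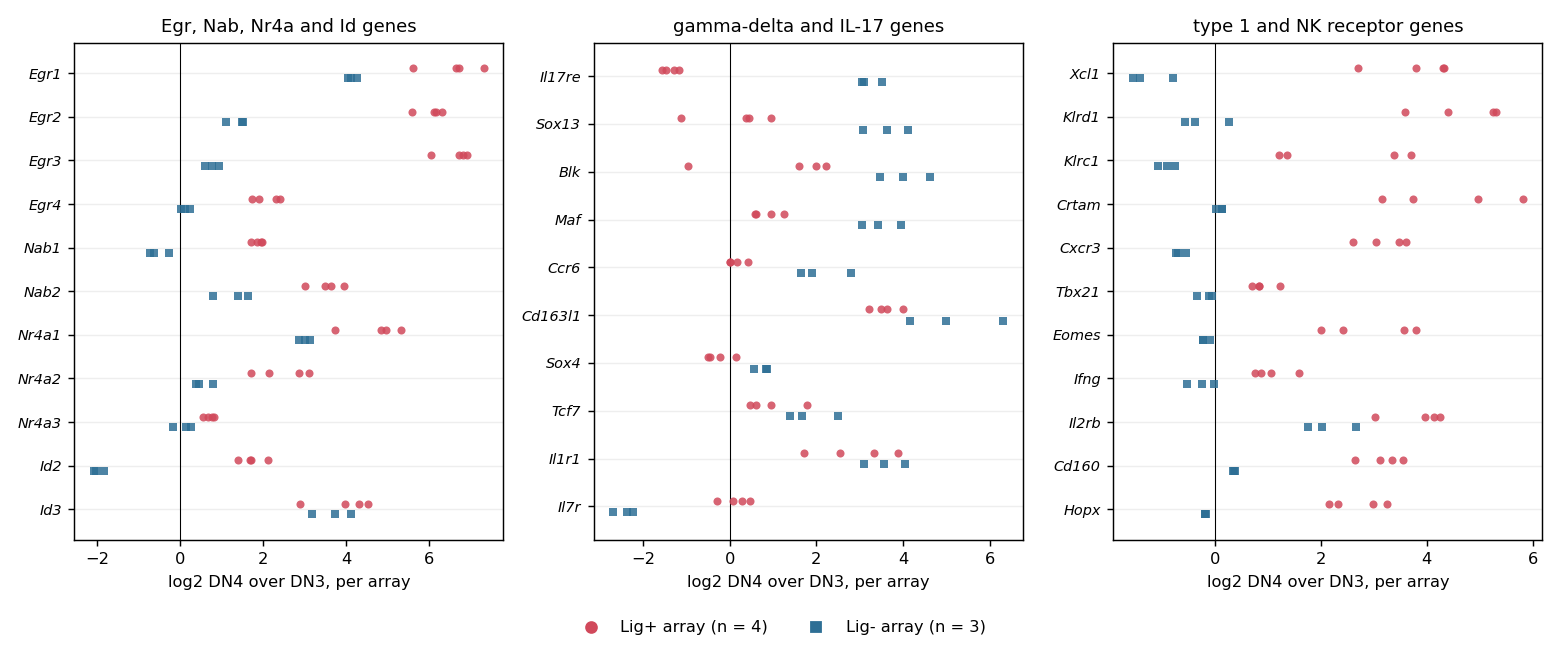
Log2 ratio of DN4 over DN3 on each array (Lig+ red circles, n = 4; Lig- blue squares, n = 3) for genes of the Egr, Nab, Nr4a and Id families, of the γδ and IL-17 programme, and of type 1 and NK receptor genes. Egr2 lies at 5.59 to 6.33 in Lig+ and 1.11 to 1.51 in Lig- arrays, Il17re at -1.56 to -1.17 and 3.06 to 3.52, and Xcl1 at 2.71 to 4.33 and -1.54 to -0.78, while Id3 overlaps.

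Calls in the other lists of receptor signalling were counted in the same way, with rises and falls under 2 other settings in brackets. Over all genes tested 4.8% were higher and 6.97% lower, the shares to set beside each list count here and below, except counts under those 2 settings. Without slide 1, 346 of all 23602 genes were higher and 509 lower. With the replicate block 2286 of them were higher and 2984 lower. List counts under these settings belong beside those numbers. In the AP-1 family 1 of 15 rose, Jund (0.73 ± 0.09, adjusted p = 0.00531), and 4 fell (1 and 1 without slide 1, 5 and 4 with the replicate block), led by the small Maf protein Mafg, at 0.49, 0.24, -0.45 and -0.04 against 2.08, 1.72 and 1.30 (-1.60 ± 0.19, adjusted p = 0.00437), and also Jdp2 (-1.24 ± 0.27, adjusted p = 0.0346) and Maff (-0.75 ± 0.18, adjusted p = 0.0442). Among feedback genes of the ERK pathway, 1 of 13 rose, the phosphatase gene Dusp2 (1.14 ± 0.17, adjusted p = 0.0107), and 2 fell, Dusp7 (-0.90 ± 0.19, adjusted p = 0.0334) and Spred1 (-0.69 ± 0.15, adjusted p = 0.0324), with none called without slide 1. In the calcineurin and NFAT list 2 of 17 rose, the calcium channel gene Orai1 (0.70 ± 0.09, adjusted p = 0.00511) and the calcineurin subunit gene Ppp3cc (0.90 ± 0.18, adjusted p = 0.0254), and 0 fell (1 and 0 without slide 1, 2 and 1 with the replicate block). NF-kappaB genes gave 4 rises and 1 fall among 15, with Bcl3, an atypical inhibitor of NF-kappaB, at 3.55, 2.92, 3.72 and 3.58 against 1.94, 1.95 and 2.17 (1.43 ± 0.21, adjusted p = 0.00927), and 9 rises with the replicate block. Without slide 1, all 4 rises were lost. Of 23 genes for CD3 chains and proximal signalling 1 rose and 2 fell, near the shares over all genes (0 and 0 without slide 1, 2 and 8 with the replicate block). Rasgrp1, an activator of Ras, differed by -1.04 ± 0.22, adjusted p = 0.0317. Genes that restrain receptor signalling gave 5 rises and 2 falls among 20 (1 and 0 without slide 1, 8 and 6 with the replicate block), with the phosphatase-like Ubash3a at 0.33, 0.22, 0.40 and 0.28 against -0.56, -0.54 and -0.54 (0.86 ± 0.08, adjusted p = 0.00226) and the inhibitory receptor Btla at 4.69, 3.65, 5.32 and 5.08 against 2.37, 2.38 and 2.28 (2.34 ± 0.40, adjusted p = 0.0155). Dusp2 missed the threshold without slide 1, at an adjusted p of 0.068. Dusp7 missed the threshold without slide 1, Lig+ 3 or Lig+ 4, at adjusted p from 0.0751 to 0.135. Spred1 missed the threshold without slide 1, Lig- 2, Lig+ 3 or Lig- 3, at adjusted p from 0.058 to 0.133. Ppp3cc and Btla missed the threshold without slide 1, Lig- 2 or Lig- 3, at adjusted p from 0.0553 to 0.131. Bcl3 missed the threshold without slide 1 or Lig- 2, at adjusted p from 0.0504 to 0.0678. Rasgrp1 missed the threshold without slide 1, Lig+ 3, Lig- 3 or Lig+ 4, at adjusted p from 0.054 to 0.157. Jdp2 missed the threshold without slide 1, Lig- 2, Lig+ 3, Lig- 3 or Lig+ 4, at adjusted p from 0.0608 to 0.124. Maff missed the threshold without slide 1, Lig- 2, Lig+ 3 or Lig+ 4, at adjusted p from 0.105 to 0.179. Spred1 also missed it on Agilent's processed signals, with the mean of its probes or on the authors' values (adjusted p from 0.0648 to 0.418). Ppp3cc and Jdp2 also missed it under median centring (adjusted p from 0.0702 to 0.0753). Rasgrp1 also missed it under median centring or with the mean of its probes (adjusted p from 0.145 to 0.171). Maff also missed it under median centring or on scan day 2 alone (adjusted p from 0.0593 to 0.143).

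Id2, which like Id3 blocks E proteins, was split between the groups. It read 1.67, 1.70, 1.40 and 2.11 on the Lig+ arrays and -1.84, -2.04 and -2.09 on the Lig- arrays, above DN3 in every Lig+ array and below it in every Lig- array (3.72 ± 0.18, adjusted p = 0.000405, 13.1-fold), and a second probe gave 4.14. Of the E protein genes, Tcf12, which encodes HEB, read -0.82, -0.93, -0.77 and -0.94 against 0.68, 0.33 and 0.52 (-1.36 ± 0.10, adjusted p = 0.00108), and Tcf3, which encodes E2A, differed by -0.67 ± 0.12, adjusted p = 0.0203. Tcf3 missed the threshold without slide 1, Lig- 2 or Lig+ 4, at adjusted p from 0.0555 to 0.101. Tcf3 also missed it under median centring (adjusted p = 0.11).

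In the γδ and IL-17 list 8 of 18 measured genes were lower in Lig+ cells, 1 was higher and 9 did not pass, with a median of -0.795. With an array left out the falls numbered 5, without slide 1, to 9. Sox13, a factor of early γδ precursors, read 0.94, 0.44, -1.12 and 0.37 against 4.12, 3.07 and 3.63 (-3.37 ± 0.41, adjusted p = 0.00481), so the Lig- arrays stood well above DN3 and the Lig+ arrays around it. Maf, a factor needed for IL-17-producing γδ cells, read 1.25, 0.96, 0.60 and 0.59 against 3.96, 3.42 and 3.05 (-2.57 ± 0.14, adjusted p = 0.000624). Sox4 read 0.15, -0.45, -0.22 and -0.51 against 0.83, 0.56 and 0.87 (-0.98 ± 0.14, adjusted p = 0.00851). The chemokine receptor Ccr6, a surface mark of these cells, differed by -1.98 ± 0.27, adjusted p = 0.00732, and Cd163l1, which encodes the receptor SCART1, by -1.48 ± 0.30, adjusted p = 0.0279. Cd163l1 was high over DN3 in both groups, at 3.86 in Lig+ and 5.34 in Lig- cells. Blk, a Src family kinase of IL-17-producing γδ cells, read 2.21, 1.98, -0.95 and 1.61 against 4.62, 3.47 and 4.00 and did not pass the test (-2.73 ± 0.71, adjusted p = 0.0587; -2.95, adjusted p = 0.0474, with the replicate block). Ccr6 missed the threshold without slide 1, at an adjusted p of 0.051. Cd163l1 missed the threshold without slide 1, Lig+ 3 or Lig- 3, at adjusted p from 0.0783 to 0.111. Cd163l1 also missed it under median centring or without the dye term (adjusted p from 0.0786 to 0.123).

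The only rise in that list was Il7r, the IL-7 receptor chain, at 0.28, 0.47, -0.29 and 0.08 against -2.22, -2.36 and -2.68 (2.58 ± 0.19, adjusted p = 0.00117). It stayed at the DN3 level in Lig+ cells and lay under it in Lig- cells. Il17a and Il23r were listed but did not enter the test. Factors of the T lineage fell in 4 of 13 cases and rose in 1 (0 and 2 without slide 1, 1 and 6 with the replicate block). Myb read -2.70, -3.04, -2.84 and -2.78 against 0.22, -0.23 and -0.03 and was at the DN3 level in Lig- cells (-2.80 ± 0.11, adjusted p = 0.000163). Gata3 read 0.88, 1.15, 0.19 and 0.35 against 3.71, 3.25 and 3.14 and stood above DN3 in Lig- cells (-2.69 ± 0.24, adjusted p = 0.00173). Tcf7, which encodes TCF1, differed by -0.81 ± 0.15, adjusted p = 0.0192 with overlapping arrays, and Bcl11b by -1.39 ± 0.22, adjusted p = 0.0119. Tcf7 missed the threshold without slide 1, Lig- 2, Lig- 3 or Lig+ 4, at adjusted p from 0.0532 to 0.0912. Bcl11b missed the threshold without slide 1 or Lig- 2, at adjusted p from 0.0555 to 0.0678. Tcf7 also missed it under median centring, without the dye term or with DN4 channels alone (adjusted p from 0.13 to 0.2).

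Among 15 factors of effector fate 3 rose and 5 fell (2 and 1 without slide 1, 4 and 5 with the replicate block). Ahr, the aryl hydrocarbon receptor, read 1.25, 1.47, 0.63 and 0.56 against -2.54, -2.43 and -2.54 (3.49 ± 0.24, adjusted p = 0.000981), on opposite sides of DN3. Ikzf3 differed by 2.28 ± 0.40, adjusted p = 0.0178 and Irf8 by -1.56 ± 0.20, adjusted p = 0.00631. Of 12 genes of innate-like T cells 4 rose, among them Id2, Xcl1 and Cd160, and 5 fell, among them Gata3, Icos (-1.70 ± 0.39, adjusted p = 0.0394) and Slamf1, a receptor that guides innate-like cells (-0.95 ± 0.10, adjusted p = 0.00297). The signs were thus mixed within this list, with a median of 0.01, and the falls numbered 2 without slide 1. Ikzf3 missed the threshold without slide 1, Lig- 2 or Lig- 3, at adjusted p from 0.0608 to 0.0825. Irf8 missed the threshold without slide 1, at an adjusted p of 0.0512. Icos missed the threshold without slide 1, Lig- 2, Lig+ 3, Lig- 3 or Lig+ 4, at adjusted p from 0.0516 to 0.177. Ikzf3 also missed it with the mean of its probes (adjusted p = 0.059). Irf8 also missed it on scan day 2 alone (adjusted p = 0.0551). Icos also missed it on Agilent's processed signals or on the authors' values (adjusted p = 0.0588).

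In the list of type 1 and cytotoxic genes 12 of 23 measured were up and 3 down, with a median of 1.09. Tbx21, which encodes T-bet, the factor of interferon-γ production, read 1.23, 0.70, 0.83 and 0.84 on the Lig+ arrays and -0.11, -0.33 and -0.05 on the Lig- arrays (1.09 ± 0.12, adjusted p = 0.00342). Its relative Eomes read 2.42, 2.01, 3.56 and 3.79 against -0.23, -0.22 and -0.09 (3.09 ± 0.44, adjusted p = 0.00847). Both lay near DN3 in Lig- cells, where the Eomes probe was well above background on 2 of 3 arrays, and above it in every Lig+ array. Ifng itself read 0.76, 0.87, 1.06 and 1.59 against -0.25, -0.02 and -0.52 (1.31 ± 0.22, adjusted p = 0.015). Hopx, a homeodomain protein of effector cells, read 2.98, 2.15, 3.25 and 2.32 against -0.19, -0.18 and -0.17 (2.87 ± 0.27, adjusted p = 0.00226), and Fasl, the ligand of the death receptor Fas, differed by 2.15 ± 0.37, adjusted p = 0.0156. Il2rb, which encodes the β chain of the receptors for IL-2 and IL-15, read 3.97, 3.02, 4.14 and 4.25 against 2.02, 1.75 and 2.67, above DN3 in both groups (1.70 ± 0.37, adjusted p = 0.0336). Its DN3 channels differed by 1.78.

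The 3 falls in the same list were the granzyme gene Gzma, at 1.80, 1.42, 1.99 and 1.95 against 5.49, 3.15 and 4.72 (-2.60 ± 0.47, adjusted p = 0.0185), the chemokine gene Ccl4 (-1.43 ± 0.26, adjusted p = 0.0186), and Il12rb1, a chain of the receptors for IL-12 and IL-23 (-1.29 ± 0.14, adjusted p = 0.00302). Gzma and Il12rb1 were above DN3 in both groups and more so in Lig- cells. Perforin, Prf1, differed by 1.23 ± 0.28, adjusted p = 0.0401, Gzmb by 1.30 ± 0.89, adjusted p = 0.434 and Runx3 by -0.23 ± 0.25, adjusted p = 0.648. Ifng and Gzma missed the threshold without slide 1 or Lig- 3, at adjusted p from 0.0501 to 0.0902. Fasl missed the threshold without slide 1, Lig- 2 or Lig- 3, at adjusted p from 0.0537 to 0.0729. Il2rb missed the threshold without slide 1, Lig- 2, Lig+ 3 or Lig+ 4, at adjusted p from 0.0809 to 0.158. Prf1 missed the threshold without slide 1, Lig- 2, Lig+ 3, Lig- 3 or Lig+ 4, at adjusted p from 0.0831 to 0.147. Il2rb and Prf1 also missed it on Agilent's processed signals or on the authors' values (adjusted p from 0.0656 to 0.105). With an array left out the list kept 6 to 11 rises and 1 to 3 falls.

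NK receptor genes gave 5 rises and 1 fall among 18 (median -0.05), so most members did not pass. Besides Klrd1 these were Klrc1, its NKG2A partner (3.24 ± 0.60, adjusted p = 0.0206), Klrk1, which encodes NKG2D, at 2.05, 1.75, 2.40 and 1.91 against -0.62, -0.37 and 0.02 (2.33 ± 0.20, adjusted p = 0.00171), Cd160 at 3.54, 2.64, 3.33 and 3.12 against 0.38, 0.34 and 0.37 (2.82 ± 0.19, adjusted p = 0.000931), and Cd244a (2.48 ± 0.22, adjusted p = 0.0018). The fall was Klrb1f (-1.16 ± 0.21, adjusted p = 0.0184). Klrb1c, Ncr1 and Klra8, which encode NK receptors, differed by -0.28 ± 0.17, -0.69 ± 0.31 and -0.56 ± 0.60, with adjusted p of 0.375, 0.222 and 0.644. Klrb1c passed as lower with the replicate block (adjusted p = 0.0334). Whether these genes mark NK cells in BALB/c mice was not tested. Klrc1 and Klrk1 were well above background on 2 of 3 Lig- arrays and Ncr1 on 2 of 4 Lig+ arrays. Klrc1 missed the threshold without slide 1, Lig- 2, Lig- 3 or Lig+ 4, at adjusted p from 0.0522 to 0.0932. Klrb1f missed the threshold without slide 1, Lig- 2 or Lig+ 3, at adjusted p from 0.054 to 0.104. Klrb1f also missed it on scan day 2 alone (adjusted p = 0.102).

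Chemokine genes gave 3 rises and 1 fall among 10 (2 and 0 without slide 1, 5 and 1 with the replicate block). Ccl5 read 1.66, 1.75, 3.53 and 3.11 against -0.92, -0.77 and -1.22, on opposite sides of DN3 (3.43 ± 0.47, adjusted p = 0.00751). Ccl3 rose (1.17 ± 0.21, adjusted p = 0.0192) while Ccl4, its neighbour in the same gene cluster, fell (-1.43 ± 0.26). Ccl4 read 1.25, 1.44, 0.81 and 0.69 against 2.69, 2.80 and 2.00 and Ccl3 1.41, 1.47, 0.88 and 0.74 against 0.00, 0.17 and -0.25, so Ccl3 was at DN3 in Lig- cells and Ccl4 above it in all samples. The Ccl3 probe was well above background on 2 of 3 Lig- arrays. Ccl3 missed the threshold without slide 1 or Lig- 3, at adjusted p from 0.0751 to 0.113. Ccl4 missed the threshold without slide 1, Lig- 2 or Lig+ 3, at adjusted p from 0.0563 to 0.0997. Of 24 TNF and TNF receptor genes 6 rose and 1 fell (2 and 0 without slide 1, 9 and 3 with the replicate block). Tnf read 1.90, 1.60, 1.45 and 1.46 against 0.10, 0.10 and -0.29 (1.66 ± 0.12, adjusted p = 0.00108), and Tnfsf4, the OX40 ligand, and Tnfsf8, the CD30 ligand, differed by 3.02 ± 0.54, adjusted p = 0.0185, and by 2.48 ± 0.54, adjusted p = 0.0347. Tnfsf4 was well above background on 2 of 3 Lig- arrays. Tnfsf4 missed the threshold without slide 1, Lig- 2, Lig+ 3 or Lig- 3, at adjusted p from 0.0553 to 0.0828. Tnfsf8 missed the threshold without slide 1, Lig- 2, Lig+ 3, Lig- 3 or Lig+ 4, at adjusted p from 0.0647 to 0.136.

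Costimulatory and inhibitory receptors rose in 9 of 16 cases and fell in 1, Icos, with a median of 0.75. Cd28 read 3.22, 3.29, 3.49 and 3.22 on the Lig+ arrays and 0.39, 0.71 and 0.90 on the Lig- arrays (2.62 ± 0.12, adjusted p = 0.000305), while another of its probes gave -0.74. Lag3 read 1.08, 0.81, 2.04 and 1.58 against -1.02, -0.79 and -0.79 (2.21 ± 0.28, adjusted p = 0.00545). Cd200 read -1.03, -1.14, 0.18 and -0.17 against -2.79, -2.94 and -2.94, below DN3 in Lig- cells and closer to it in Lig+ cells (2.33 ± 0.34, adjusted p = 0.00879). The genes of both PD-1 ligands, Cd274 (1.27 ± 0.13, adjusted p = 0.00264) and Pdcd1lg2 (2.02 ± 0.29, adjusted p = 0.00889), rose, while Pdcd1 itself, at 3.55 and 3.92 over DN3, did not pass (-0.37 ± 0.51, adjusted p = 0.722) but was lower with the replicate block (-0.62, adjusted p = 0.00822). Pdcd1lg2 missed the threshold without slide 1, at an adjusted p of 0.0624. Rises in the list numbered 4 to 9 with an array left out.

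Cytokine receptors gave 4 rises and 6 falls among 28 (1 and 3 without slide 1, 5 and 7 with the replicate block). Besides Il7r and Il2rb, the rises were Il10rb (1.00 ± 0.19, adjusted p = 0.0227) and Il2rg, the common γ chain (0.54 ± 0.12, adjusted p = 0.0386). Ifngr1, the interferon-γ receptor chain that binds the ligand, read -1.44, -1.74, -1.20 and -1.40 against 1.30, 0.14 and 1.43 and was on opposite sides of DN3 (-2.38 ± 0.32, adjusted p = 0.00723). Tgfbr1 read -1.65, -1.63, -1.60 and -1.55 against -0.85, -0.66 and -0.89 (-0.81 ± 0.09, adjusted p = 0.00318). Il2ra, a marker of DN3 cells, was far below DN3 in both groups, at -5.29 and -5.45 (0.16 ± 0.28, adjusted p = 0.788). Of 19 SOCS, JAK and STAT genes 1 rose, Cish, a feedback target of STAT5, at -1.32, -1.16, 0.41 and -0.38 against -3.33, -3.52 and -2.07 (2.30 ± 0.47, adjusted p = 0.0287). Ifngr1 missed the threshold without slide 1, at an adjusted p of 0.0557. Cish and Il10rb missed the threshold without slide 1, Lig- 2, Lig+ 3 or Lig+ 4, at adjusted p from 0.0546 to 0.116. Il2rg missed the threshold without slide 1, Lig+ 3, Lig- 3 or Lig+ 4, at adjusted p from 0.0826 to 0.158. Il2rg also missed it on Agilent's processed signals, with the replicate block or on the authors' values (adjusted p from 0.0503 to 0.0635).

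Homing and egress genes gave 4 rises and 3 falls among 24 (1 and 1 without slide 1, 5 and 3 with the replicate block). Cxcr6 read 5.53, 4.11, 5.74 and 5.99 against 2.88, 2.55 and 3.86, high over DN3 in both groups (2.24 ± 0.54, adjusted p = 0.0462), with a DN3 channel difference of 1.65. The falls included Ccr9, a chemokine receptor (-1.05 ± 0.18, adjusted p = 0.0151), with overlapping arrays. Ccr9 stood far above DN3 in both groups, at 3.21 in Lig+ and 4.26 in Lig- cells. Klf2 and S1pr1, which allow exit from the thymus, stood far above DN3 in both groups, at 5.82 and 5.15 for Klf2 and at 5.99 and 5.22 for S1pr1. They differed by 0.67 ± 0.66, adjusted p = 0.602, and by 0.77 ± 0.62, adjusted p = 0.513. With DN4 channels alone both passed as higher (limma adjusted p = 0.0344 and 0.00418). In the Gimap family of lymphocyte GTPases 2 of 7 rose, Gimap5 (0.97 ± 0.10, adjusted p = 0.00305) and Gimap7 (1.78 ± 0.37, adjusted p = 0.0294). Cxcr6 and Gimap7 missed the threshold without slide 1, Lig- 2, Lig+ 3, Lig- 3 or Lig+ 4, at adjusted p from 0.0535 to 0.195. Ccr9 missed the threshold without slide 1, at an adjusted p of 0.0948. Cxcr6 also missed it on Agilent's processed signals or on the authors' values (adjusted p = 0.17). Ccr9 also missed it under median centring or without the dye term (adjusted p from 0.0857 to 0.162). Gimap5 missed it with the mean of its probes (adjusted p = 0.0761). Gimap7 also missed it on Agilent's processed signals, with the mean of its probes or on the authors' values (adjusted p from 0.0544 to 0.0559).

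Notch targets split. Nrarp, a feedback inhibitor of Notch, read -1.17, -1.13, -0.31 and -0.50 against -4.16, -4.08 and -3.31, so it was below DN3 everywhere and much further in Lig- cells (3.03 ± 0.26, adjusted p = 0.00159). Dtx1 read 0.19, 0.25, -0.59 and -0.36 against -2.22, -2.19 and -2.25 (2.11 ± 0.21, adjusted p = 0.00265) and Hey1 1.25, 1.17, 1.04 and 1.34 against -0.61, -0.71 and -0.52 (1.82 ± 0.10, adjusted p = 0.000658). Notch3 fell, at -4.03 in Lig+ and -2.14 in Lig- cells over DN3 (-1.89 ± 0.44, adjusted p = 0.0435), with overlapping arrays, and Hes1 differed by -0.81 ± 0.27, adjusted p = 0.117 (-0.85, adjusted p = 0.0173, with the replicate block). In all, 3 of 9 rose and 1 fell (3 and 0 without slide 1, 3 and 2 with the replicate block). Notch3 missed the threshold without slide 1, Lig- 2, Lig+ 3, Lig- 3 or Lig+ 4, at adjusted p from 0.0875 to 0.152. Notch3 also missed it on Agilent's processed signals, under median centring, without the dye term or on the authors' values (adjusted p from 0.0581 to 0.0934).

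Genes of the pre-TCR stage and of recombination gave 0 rises and 4 falls among 14 (0 and 2 without slide 1, 0 and 4 with the replicate block). Lig4, a DNA ligase of recombination, read -1.53, -1.40, -1.89 and -1.91 against 1.29, 1.56 and 1.12 (a fall of 7.99-fold, adjusted p = 0.000702), and Vpreb1, a surrogate light chain gene, differed by -1.07 ± 0.12, adjusted p = 0.0039. Dntt, the terminal transferase, read -2.80, -5.48, -7.59 and -7.80 against -0.06, -3.23 and -3.10 with overlapping arrays (-3.48 ± 0.59, adjusted p = 0.0155). Ptcra, the pre-TCR α chain gene, was far below DN3 in both groups, at -5.22 and -4.71 (-0.52 ± 0.37, adjusted p = 0.45). The Rag2 probe read -2.75, -3.53, -3.14 and -3.25 against -2.80, -3.40 and -3.11 (-0.02 ± 0.13, adjusted p = 0.953). Since all populations were Rag2-/- and the position of the probe relative to the deletion is not given in the sources used here, it does not check the genotype. Genes of the double-positive stage gave 1 rise, Cd28, and 5 falls among 17 (1 and 4 without slide 1, 1 and 8 with the replicate block), with Aqp11 at -2.67, -4.11, -4.68 and -4.72 against -0.73, -1.23 and -1.03 (-2.95 ± 0.31, adjusted p = 0.00302) and Arpp21 at -3.12, -3.44, -3.65 and -3.98 against -0.89, -0.74 and -1.05 (-2.63 ± 0.18, adjusted p = 0.000981). Of 14 early progenitor factors only Kit passed, and it fell (-0.54 ± 0.11, adjusted p = 0.0277). Dntt missed the threshold without slide 1, Lig- 2 or Lig- 3, at adjusted p from 0.0625 to 0.0723. Kit missed the threshold without slide 1, Lig- 2 or Lig+ 4, at adjusted p from 0.0684 to 0.154. Dntt also missed it without the dye term (adjusted p = 0.132). Kit also missed it on Agilent's processed signals, under median centring, on scan day 2 alone, on the authors' values or with DN4 channels alone (adjusted p from 0.051 to 0.233).

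In the BCL2 family the survival gene Bcl2a1b rose, at 1.30, 1.40, 2.06 and 1.67 against -0.67, -0.46 and -0.85 (2.25 ± 0.20, adjusted p = 0.00171), and 4 of 15 fell (1 and 1 without slide 1, 4 and 5 with the replicate block). Bmf, which promotes cell death, read -3.87, -4.17, -3.51 and -4.27 against -0.98, -0.91 and -0.35 (-3.22 ± 0.24, adjusted p = 0.00117), although its probes ranged from -3.22 to -0.19. Bcl2l11, which encodes the death-promoting BIM, and Bbc3, which encodes PUMA, differed by -1.62 ± 0.36, adjusted p = 0.0363, and by -1.02 ± 0.21, adjusted p = 0.0297. Bcl2 differed by 0.68 ± 0.23, adjusted p = 0.124. Of 19 p53 targets 1 rose and 2 fell, against 4.8% and 6.97% of all genes (0 and 1 without slide 1, 6 and 2 with the replicate block). The antiproliferative gene Btg2 differed by -0.89 ± 0.13, adjusted p = 0.00945, a fall that was lost under median centring (adjusted p = 0.0558). Bcl2l11 missed the threshold without slide 1, Lig- 2, Lig- 3 or Lig+ 4, at adjusted p from 0.0843 to 0.172. Bbc3 missed the threshold without slide 1, Lig- 2, Lig+ 3, Lig- 3 or Lig+ 4, at adjusted p from 0.0629 to 0.123. Bcl2l11 also missed it on scan day 2 alone or with the mean of its probes (adjusted p from 0.0897 to 0.0903). Bbc3 also missed it under median centring (adjusted p = 0.0919).

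Among 20 regulators of G1, Ccnd2, which encodes cyclin D2, rose at 0.24, -0.05, 0.22 and 0.22 against -1.53, -1.95 and -1.75 (1.92 ± 0.11, adjusted p = 0.000694), staying at the DN3 level in Lig+ cells. The whole list had 1 rise and 3 falls (1 and 1 without slide 1, 8 and 3 with the replicate block). Cyclin D3, Ccnd3, fell (-0.61 ± 0.09, adjusted p = 0.00955), as did the cell cycle inhibitors Cdkn1c, at -0.08, 0.12, 0.45 and 0.76 against 1.78, 1.69 and 1.90 (-1.50 ± 0.19, adjusted p = 0.00527), and Cdkn1b (-0.96 ± 0.18, adjusted p = 0.0225), whose probes ranged from -0.96 to 0.16. Of 23 mitotic genes 0 rose and 1 fell, Kif23 (-0.62 ± 0.11, adjusted p = 0.0159), although the median of the list was 0.77. With the slide as a replicate block 20 of the 23 were higher and 1 lower. Mki67, a proliferation marker, read 0.95, 1.26, 1.53 and 0.96 against -0.26, 0.23 and 1.45 (0.64 ± 0.33, adjusted p = 0.295), and its Lig- arrays ran from below DN3 to the level of Lig+ 3. Of 24 replication genes 1 rose, Mcm3 (1.08 ± 0.16, adjusted p = 0.00979), and 1 fell, Mcm7 (-0.59 ± 0.13, adjusted p = 0.0347), with none called without slide 1 and 6 rises under the replicate block. Ccnd3 and Mcm3 missed the threshold without slide 1, at adjusted p from 0.0595 to 0.0717. Cdkn1b and Kif23 missed the threshold without slide 1, Lig- 2 or Lig- 3, at adjusted p from 0.052 to 0.124. Mcm7 missed the threshold without slide 1, Lig- 2, Lig+ 3 or Lig- 3, at adjusted p from 0.0919 to 0.143. Ccnd3 also missed it under median centring (adjusted p = 0.12). Cdkn1b also missed it on scan day 2 alone or with the mean of its probes (adjusted p from 0.0642 to 0.134). Kif23 also missed it on Agilent's processed signals, under median centring, on scan day 2 alone or on the authors' values (adjusted p from 0.0503 to 0.0715). Mcm7 also missed it under median centring, without the dye term or with DN4 channels alone (adjusted p from 0.0691 to 0.269).

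Interferon-stimulated genes rose in 12 of 27 measured cases with 0 falls and a median of 0.72. Besides Aim2, the largest were Mx2, an antiviral GTPase, at 0.88, 1.01, 0.68 and 0.81 against -1.41, -1.38 and -0.69 (1.99 ± 0.20, adjusted p = 0.00244), Ifi204 at 0.52, 0.68, 0.31 and 0.37 against -1.52, -1.34 and -1.59 (1.96 ± 0.12, adjusted p = 0.000784), and Oas1a (1.69 ± 0.22, adjusted p = 0.00602). Each was above DN3 in Lig+ cells and below it in Lig- cells. Mx1 (1.29 ± 0.11, adjusted p = 0.00171) and Isg15 (1.02 ± 0.23, adjusted p = 0.0383) rose too, while Ifit1 differed by 1.42 ± 0.52, adjusted p = 0.147 (1.25, adjusted p = 0.0159, with the replicate block). Isg15 missed the threshold without slide 1, Lig+ 2, Lig- 2, Lig+ 3 or Lig+ 4, at adjusted p from 0.0546 to 0.181. Isg15 also missed it under median centring or on scan day 2 alone (adjusted p from 0.0743 to 0.133). Rises in the list numbered 6 to 15 with an array left out and 18 with the replicate block.

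Genes of sterol synthesis rose in 7 of 22 cases with 0 falls and a median of 0.60, but in 0 without slide 1. With the replicate block 17 rose and 1 fell. Cyp51 read -0.30, -0.33, 0.71 and -0.28 against -1.83, -1.78 and -1.39, with Lig+ 3 above the other Lig+ arrays (1.59 ± 0.28, adjusted p = 0.0168), and Idi1, Hmgcs1 and Nsdhl, which act in the same route, differed by 0.99, 0.94 and 0.93, with adjusted p of 0.0282, 0.0444 and 0.015. The 4 Nsdhl probes ranged from -1.35 to 0.94. Cyp51 missed the threshold without slide 1 or Lig- 2, at adjusted p from 0.0802 to 0.0894. Idi1 missed the threshold without slide 1, Lig- 2 or Lig- 3, at adjusted p from 0.0649 to 0.127. Hmgcs1 missed the threshold without slide 1, Lig+ 2, Lig- 2, Lig+ 3 or Lig- 3, at adjusted p from 0.0581 to 0.177. Nsdhl missed the threshold without slide 1, at an adjusted p of 0.0501. Cyp51 and Idi1 also missed it on scan day 2 alone (adjusted p from 0.0671 to 0.146). Hmgcs1 also missed it on Agilent's processed signals, under median centring, on scan day 2 alone or on the authors' values (adjusted p from 0.065 to 0.199). Lists with few calls were glycolysis, with 1 rise and 2 falls among 17, ribosome biogenesis, with 1 and 1 among 23, heat shock genes, with 1 and 0 among 11, and amino acid and peptide transporters, with 1 and 1 among 13, and none of these calls held without slide 1. In glycolysis the phosphofructokinase genes moved apart, with Pfkp at 1.37 ± 0.22, adjusted p = 0.012, and Pfkm at -1.17 ± 0.17, adjusted p = 0.00978, while the 3 Pfkp probes ranged from -0.27 to 1.37. Slc15a2, a peptide transporter, read -3.85, -4.64, -0.34 and -0.24 against 1.62, 1.77 and 5.31. The groups did not overlap, and it did not pass (-5.34 ± 1.33, adjusted p = 0.0519) but was lower with the replicate block (-5.84, adjusted p = 0.00137), at -5.47, -6.41 and -5.65 within slides 1 to 3. Its probe was well above background on 2 of 4 Lig+ arrays, and its other probe gave -0.11. Pfkp and Pfkm missed the threshold without slide 1 or Lig- 2, at adjusted p from 0.0528 to 0.0661.

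**Figure D5:**
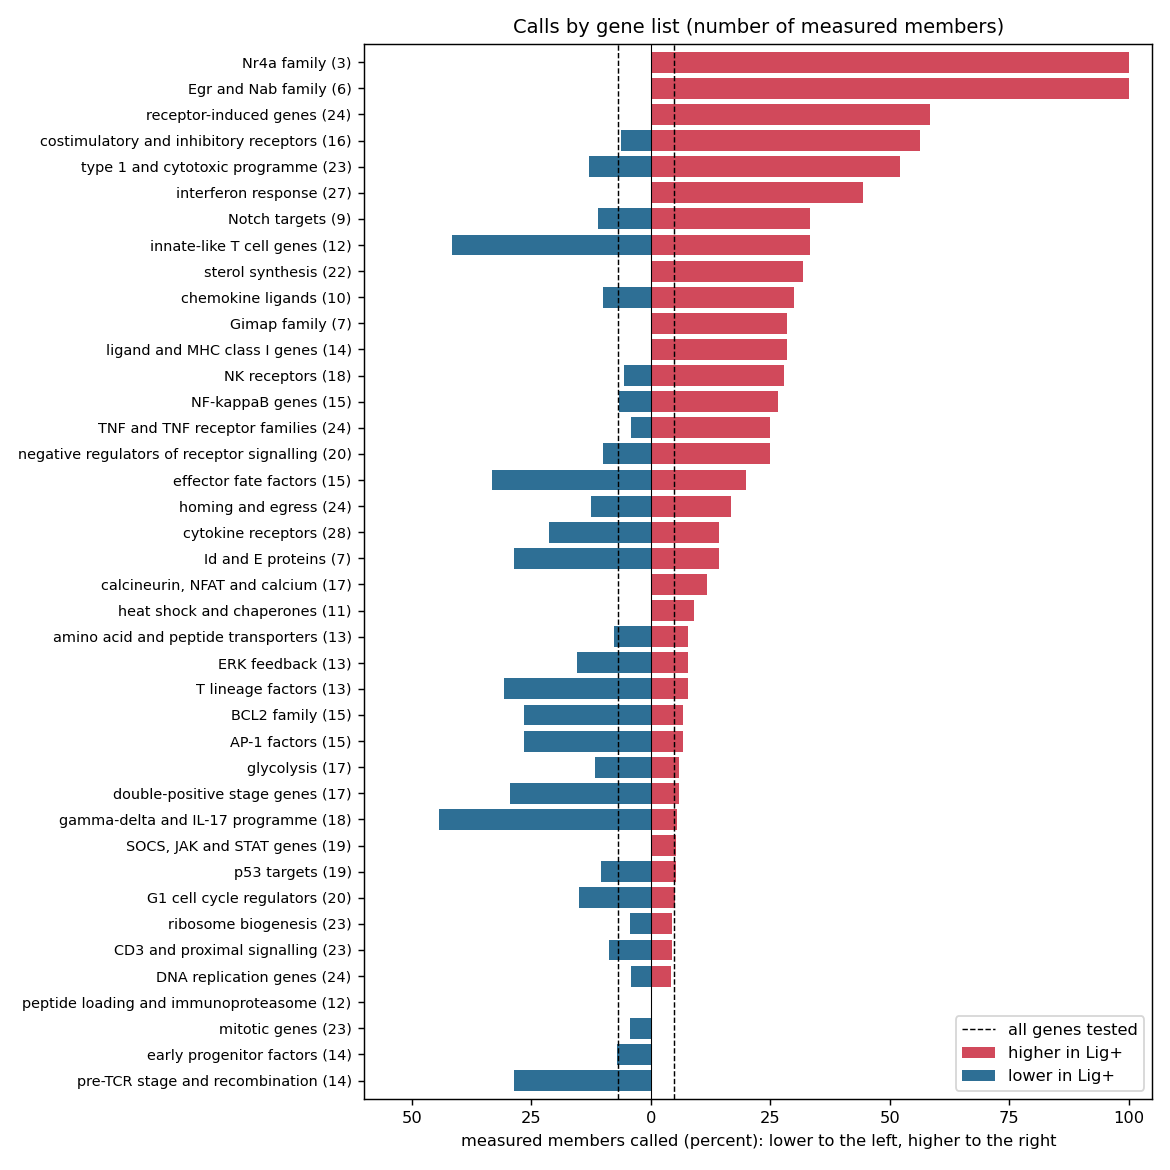
Percent of measured members called lower (left, blue) and higher (right, red) in Lig+ cells for the 40 pathway lists, with the number measured in brackets and dashed lines at the shares over all genes, 6.97% lower and 4.8% higher. The Nr4a and Egr and Nab families are higher in all members (3 of 3 and 6 of 6), and the γδ and IL-17 list has the largest share lower (8 of 18).

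The DN4 samples were checked against markers. Of 9 genes that define T lineage thymocytes, Cd3e, Cd3g, Cd3d, Lck and Ptprc did not pass, and Thy1, Cd24a, Tcf7 and Bcl11b fell, none of them without slide 1. Thy1 read 0.97, -0.38, -0.66 and -0.98 against 2.09, 0.37 and 0.40 with overlapping arrays (-1.08 ± 0.15, adjusted p = 0.00738), and Cd24a, which is lost as γδ thymocytes mature, -1.82, -2.99, -2.60 and -2.87 against -0.68, -2.23 and -1.32 (-1.07 ± 0.23, adjusted p = 0.0314). Thy1 missed the threshold without slide 1, at an adjusted p of 0.0579. Cd24a missed the threshold without slide 1, Lig+ 3, Lig- 3 or Lig+ 4, at adjusted p from 0.0573 to 0.147. Thy1 also missed it under median centring, without the dye term or with DN4 channels alone (adjusted p from 0.0578 to 0.259). Cd24a also missed it under median centring or without the dye term (adjusted p from 0.132 to 0.14). Of 14 macrophage and monocyte markers 2 rose, Ctss (1.52 ± 0.14, adjusted p = 0.00177) and Itgam (1.61 ± 0.32, adjusted p = 0.0256), and the list's median difference was -0.04 on slide 1, -0.14 on slide 2 and 1.18 on slide 3. Lyz2, the defining lysozyme gene, was below DN3 in both groups, at -3.05 and -2.96 (-0.08 ± 0.51, adjusted p = 0.948). Of 10 B cell markers 3 fell (1 without slide 1), with Blnk at -1.91 ± 0.29, adjusted p = 0.0103, while Cd79a differed by -0.62 ± 0.26, adjusted p = 0.205. Of 12 dendritic cell and class II genes 1 rose, H2-Ab1, of 10 NK and innate lymphoid markers 2 rose, Id2 and Eomes, and 2 fell, Gata3 and Kit (median -0.41, from -2.69 to 3.72), of 10 granulocyte markers 2 fell (0 without slide 1), of 7 erythroid markers 1 rose, and of 14 markers of epithelium and stroma 1 fell, Epcam (-1.25 ± 0.22, adjusted p = 0.0188). The part of other cell types in the results above was not tested. Itgam missed the threshold without slide 1, Lig- 2, Lig+ 3, Lig- 3 or Lig+ 4, at adjusted p from 0.055 to 0.11. Blnk missed the threshold without slide 1 or Lig- 2, at adjusted p from 0.0537 to 0.0642. Epcam missed the threshold without Lig- 2, Lig+ 3 or Lig- 3, at adjusted p from 0.0556 to 0.0863. Epcam also missed it without the dye term (adjusted p = 0.0653).

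Sex-linked genes varied between arrays. Xist, which is expressed from the inactive X chromosome of females, read 1.53, 1.62, -1.84 and -6.39 on the Lig+ arrays and 1.21, 1.37 and 0.82 on the Lig- arrays (-2.23 ± 1.86, adjusted p = 0.53). Eif2s3y, on the Y chromosome, read -5.54, -6.54, 0.47 and 1.64 and -2.13, -1.90 and 0.11 (-1.42 ± 2.02, adjusted p = 0.736), and none of the 5 sex-linked genes was called. Lig+ 3 and Lig+ 4 differed in both genes from Lig+ 1 and Lig+ 2, in the same split as the scan days, and so did Lig- 3 in Eif2s3y. Within slides 1 to 3 Ddx3y, also on the Y chromosome, differed by -3.40, -4.56 and -0.07. On scan day 1 alone, which holds slides 1 and 2, Ddx3y and Eif2s3y passed as lower in Lig+ cells (limma adjusted p = 0.00149 and 0.00162). Xist passed there as higher (0.289, limma adjusted p = 0.0157). The part of sex in other results was not tested. Of 19 probes of the antigen receptor loci 1 passed as higher and 1 as lower, against 1595 and 2217 of all 34906 probes tested. The brightest Tcra probe stood at 5.50 and 5.71 over DN3 in Lig+ and Lig- cells (-0.21, adjusted p = 0.908 over probes), and another Tcra probe differed by -1.07 (adjusted p = 0.181). The probes of the γ locus disagreed in their level over DN3. A Tcrg probe stood at 2.74 and 2.68 (0.07, adjusted p = 0.888), another at -0.22 and 0.03, and another at -1.54 and -1.99. The Tcrg-C probe stood at 0.02 and -0.0045, and the Trgv2 probe at 1.38 and 2.00. A Tcrb-J probe stood at -1.65 and -1.04 (-0.61, adjusted p = 0.0468). A probe of Trav3-3 was higher in Lig+ cells by 1.72 (adjusted p = 0.00295) and another probe of it was not (-0.25, adjusted p = 0.11).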

How the data were processed

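RNA of 4 Lig+ and 3 Lig- samples of sorted DN4 cells was compared with DN3 RNA on 2-colour Agilent arrays. The deposited scanner files hold linear intensity per spot in 2 channels; per the file headers, Agilent Feature Extraction 9.5.1.1 and 9.5.3.1 were used, and the submitters' processing notes name 9.5.1.1. The authors' deposited values are log10 ratios that differ from the scanner log ratios turned to DN4 over DN3 by at most 4.87e-08, with column medians of 0, and served as an alternative. Per the labels, cells were sorted by flow, and amplified RNA was coupled to Alexa 555 or Alexa 647. Dyes were taken from the labels; scanner ratios correlated over probes at 0.556 to 0.910 within a dye orientation and at -0.841 to -0.496 across orientations.

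The 45018 spots of an array include 1639 controls, and none was saturated. Mean and background intensity were corrected by normexp (offset 50) and ratios by loess, with controls at weight 0; outlier spots were dropped and spots of a probe averaged. A probe had to be well above background in either channel on 3 or more arrays (34906 of 41174), and the probe of highest signal stood for its gene. Names came from RefSeq through 22951 accessions, 6659 symbols and 3109 older symbols of probes; the other 8455 probes kept the file's name. Log2 ratios were fitted with limma 3.58.1 (lmFit, eBayes; R 4.3.3) with Lig+, Lig- and dye terms (4 residual and 2.33 prior degrees of freedom), and p-values were adjusted by Benjamini-Hochberg over 23602 genes at 0.05. DN3 counts as 1 control sample, so ratios to DN3 leave out its own spread. The dye term passed the threshold in 282 genes. Channels were separated after loess and Aquantile, with slide as a block.

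The naming rule took the 15 largest rises and 15 largest falls with a symbol, a call, a difference of at least 1 and no overlap, up to 4 called members of each of 50 lists (the 2 of smallest p where none passed), the ligand genes, Rag2, receptor loci and sex-linked genes. Other genes in the text were chosen after their values were seen. A few genes, among them 1 of the 15 largest falls, are not reported here. The contrast, members and lists were chosen with earlier results of these data known. The fit was run on data simulated from its own model with errors independent between arrays, so that run cannot test these assumptions. Besides it, 21 alternatives were run on the measured data.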

Additional observations from a re-analysis of the deposited data

Results flagged for a closer look

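In 9 of 203 groups of 4 Lig+ arrays tested, each holding the values of 1 named gene, a single array lay far from the other 3 by Dixon's test. Chance alone gives about 1 in 20. All values are log2 DN4 over DN3. Lig+ 3 was the separate array for 5 of them. Esm1 read -4.59 there and -1.50 to -0.97 on the others, with all of them below the Lig- arrays (1.97 to 2.72). Ppm1e read 0.779 against 1.59 to 1.71, also below its Lig- arrays (4.92 to 5.31). Slc15a3, a peptide and histidine transporter, read 0.519 against 0.12 to 0.13, above its Lig- arrays (-0.97 to -0.61). For the sterol gene Cyp51 the values were 0.713 against -0.33 to -0.28, above the Lig- arrays (-1.83 to -1.39). Cd74, the class II invariant chain, read 0.987 against -0.84 to -0.63, and the other Lig+ arrays overlapped the Lig- arrays (-1.20 to -0.83).

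Lig+ 2 stood apart for 3 genes. Ccnd2 read -0.0495 there and 0.22 to 0.24 on the other Lig+ arrays, Ctss 3.54 against 3.88 to 3.93, and Pdcd1lg2 2.90 against 3.92 to 4.01. In all 3 the Lig- arrays lay lower, at -1.95 to -1.53, 2.10 to 2.40 and 1.41 to 1.88. Lig+ 4 stood apart for the B cell gene Cd79a, at 0.231 against -0.02 to 0.00, within the range of the Lig- arrays (0.00 to 1.05).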

How the results depend on the processing

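The main fit called 2778 genes, 1134 higher and 1644 lower. Counts within 1.5 times of it came from Agilent's processed signals (2189), the authors' values (2191), no dye term (2582), no filter (2733), all arrays above background (2691), probe means (2728), and trend and robust priors (2515). Median centring in place of loess called 1628 genes, 857 of them lower. The fixed slide term, which is the replicate block over the pairs of slides 1 to 3, called 5270 (2286 higher, 2984 lower), slide as a random block (correlation 0.591) 5851 (2553 and 3298), scan day as a term 5516 (2346 and 3170), and scan day 1 alone 9789 (4593 and 5196). Scan day 1 alone held only the arrays of slides 1 and 2, and scan day 2 alone held 1 Lig- array. Both fits thus rest on fewer arrays than the others, and no count is given for scan day 2. DN4 channels alone called 4287, 1990 of them higher. With 1 array left out the count ran from 855 to 3545, with 346 to 1423 higher and 509 to 2122 lower; it was 855 without slide 1, 1159 without Lig- 2, 1743 without Lig+ 3, 1850 without Lig- 3, 1952 without Lig+ 4 and 3545 without Lig+ 2. The causes of these changes were not tested. No gene called both in the main fit and in an alternative changed sign. Of 203 named genes 170 were called, 74 of them under all 21 alternatives, and 169 of the 170 kept their sign in all. Named calls were lost most often without slide 1 (86), without Lig- 2 (66) and without Lig- 3 (51). Median centring lost 36, and the replicate block 1, Il2rg. Rrp12, a ribosome biogenesis gene higher by 0.34 in the main fit, was at -0.615 with DN4 channels alone, without a call, and Xist, at -2.23 in the main fit, was at 0.289 on scan day 1 alone (limma adjusted p = 0.0157). The median of 30 of the 50 lists kept its sign under every alternative. No sample was lost to saturation; the number of arrays limits what can be called.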
